A study of Mus musculus with 18 samples.

Results

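Immediate early genes are switched on by signals within minutes, from transcription factors that are already present in the cell, and their transcripts are short-lived. In microglia, the brain's own macrophages, they respond to neuronal activity, growth factors and inflammatory signals, and also to the enzymes, warmth and handling of tissue dissociation. The 10 genes described here were chosen by name, with earlier results of these data known, and no measured threshold entered the choice. They are the AP-1 subunits Fos, Fosb, Jun and Junb, the transcription factors Egr1, Atf3 and Klf2, the antiproliferative factor Btg2, the nuclear protein Ier2 and the small GTPase Rhob. They are 10 of 18194 genes with a probe set that names a single gene, and they have 12 of the 34958 such probe sets, with Jun and Btg2 having 2 each. All 10 genes and all 12 probe sets passed the filter on low values.

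The arrays measured microglia of C57BL/6 mouse embryos at E17.5, sorted by FACS as Cx3cr1-GFP+ cells after trypsin and DNase I digestion of pooled hippocampi. Every sample therefore carried the Cx3cr1-GFP label and went through the same type of digestion. Of 18 arrays, 4 came from wild-type embryos whose dams received LPS (lipopolysaccharide, an endotoxin of bacteria) and 4 from wild-type embryos whose dams received PBS as its control. A further 4 came from untreated DAP12-/- embryos (DAP12KO), which lack the adaptor protein encoded by Tyrobp, and 6 from untreated wild-type embryos (UT). The titles end in a calendar year, numbered here 1 to 4 in order of time and called the label year. There were 1 LPS and 1 PBS array of year 1, 2 LPS and 2 PBS arrays of year 2, 2 UT arrays of year 3, and 1 LPS, 1 PBS, 4 DAP12KO and 4 UT arrays of year 4. The sources used here do not say what the year marks. Sex is recorded as unknown, hippocampi were pooled per dam, and neither dose nor timing of LPS is in the labels.

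Microglia markers were bright on average on all arrays, though at their lowest Itgam was at 5.34, Trem2 at 6.22 and Tmem119 at 8.85. They and the markers of other cells differed between arrays. The mean log2 value of the 19 tested microglia markers was 11.9 and 12.1 on the 2 PBS arrays of year 2 and 12.9 to 13.9 on the other 16. The 20 neuron markers averaged 10.5 and 10.6 on the same 2 PBS arrays and 6.05 to 9.01 elsewhere, and the 12 tested markers of neural progenitors averaged 10.9 on both and 5.86 to 8.71 elsewhere. The Gapdh 3′ minus 5′ difference, which grows with a bias of the RNA towards its 3′ end, was 2.01 to 3.33 in year 1 and year 2, 1.31 and 2.77 in year 3, and 0.89 to 2.23 in year 4. Tyrobp was at 13.75 to 14.23 on the DAP12KO arrays and at 14.29 to 14.55 on the UT arrays, so that these did not overlap. The 2 wild-type PBS arrays of year 2 were at 14.06 and 13.97, inside the DAP12KO range. Whether its probe set lies inside the deleted part could not be looked up here. In bulk RNA, fewer cells of a type and less RNA per cell cannot be told apart.

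The RefSeq promoter table (GRCm38.p6, 300 bases from upstream to just past the start of a gene) held windows for 8 of the 10 genes, all but Egr1 and Ier2. Known signal-responsive elements in such promoters are the cAMP response element (CRE, TGACGTCA, with the core TGACG), the AP-1 site (TGANTCA), the CArG box bound by SRF and the site bound by MEF2 factors. Both strands were searched, and a full CRE also counts as a core. The core was present in 6 of the 8 windows (Fos, Fosb, Junb, Atf3, Klf2 and Btg2), against 20.8% of 32851 windows of 300 bases, and the full CRE in 1 (Btg2), against 1.79%. The MEF2 site was present in Jun, Atf3 and Klf2, against 3.19% of windows. An AP-1 site (7.81% of windows) and a CArG box (1.63%) were found in 0 of 8, which says only that these letters are not in the windows. The windows of Klf2, whose values differed most between LPS and PBS, of Fos, which gives the family its name, and of Btg2, with the full CRE, are printed 5′ to 3′ with CRE cores, full CREs and MEF2 sites in capitals. They lie at chr8:72318812-72319111 (plus strand), chr12:85473640-85473939 (plus strand) and chr1:134079106-134079405 (minus strand).
Klf2: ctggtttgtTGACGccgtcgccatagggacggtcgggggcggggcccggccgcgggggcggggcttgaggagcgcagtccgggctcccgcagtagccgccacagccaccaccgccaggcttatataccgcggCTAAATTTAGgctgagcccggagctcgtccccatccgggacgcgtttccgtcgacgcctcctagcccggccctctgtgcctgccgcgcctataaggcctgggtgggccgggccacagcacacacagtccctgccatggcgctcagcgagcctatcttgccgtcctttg
Fos: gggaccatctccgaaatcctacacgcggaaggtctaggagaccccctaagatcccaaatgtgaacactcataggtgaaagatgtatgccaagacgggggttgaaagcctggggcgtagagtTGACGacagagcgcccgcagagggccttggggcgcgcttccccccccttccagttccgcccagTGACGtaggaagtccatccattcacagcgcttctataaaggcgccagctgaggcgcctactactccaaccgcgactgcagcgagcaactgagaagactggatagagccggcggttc
Btg2: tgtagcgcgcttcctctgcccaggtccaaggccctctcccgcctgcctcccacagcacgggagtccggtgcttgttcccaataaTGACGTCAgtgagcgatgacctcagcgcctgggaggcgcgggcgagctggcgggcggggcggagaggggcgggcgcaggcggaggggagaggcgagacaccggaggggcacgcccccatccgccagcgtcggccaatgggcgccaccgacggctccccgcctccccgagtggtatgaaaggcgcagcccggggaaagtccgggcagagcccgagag

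In Klf2 the CRE core began at base -241 and the MEF2 site at -118 from the start. In Fos the cores began at -129 and -66, and in Btg2 the full CRE began at -166. These matches are descriptions of the letters, and binding was not measured.

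The untreated arrays gave the level of these genes without either treatment of the dam. In wild-type UT microglia all 10 genes were far above the lowest log2 value of the table, 2.19. These cells too had been digested and sorted, and no undigested tissue was measured, so that the part of dissociation in these levels was not tested. Fos, the AP-1 subunit that pairs with Jun proteins, was at 12.59 to 13.89 with a median of 13.34 over the 6 UT arrays. Egr1, a zinc-finger factor induced by growth factors and neuronal activity, ranged only from 13.84 to 14.17 (median 13.95), and Rhob, a small GTPase of endosomes and stress responses, from 13.33 to 14.07 (median 13.91). A wider range was seen for the stress-induced factor Atf3 (9.31 to 12.19, median 11.16), for Klf2 (7.03 to 10.54, median 8.96) and for Ier2 (7.61 to 10.91, median 8.68). Fosb, a paralog of Fos, ranged from 7.82 to 10.07 (median 9.07), Jun from 13.27 to 13.96 (median 13.68), Junb from 6.91 to 7.98 (median 7.35) and Btg2, an antiproliferative cofactor of mRNA decay, from 10.46 to 12.11 (median 11.64). Levels of different probe sets are not comparable with each other, since probes differ in their affinity.

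**Figure D1:**
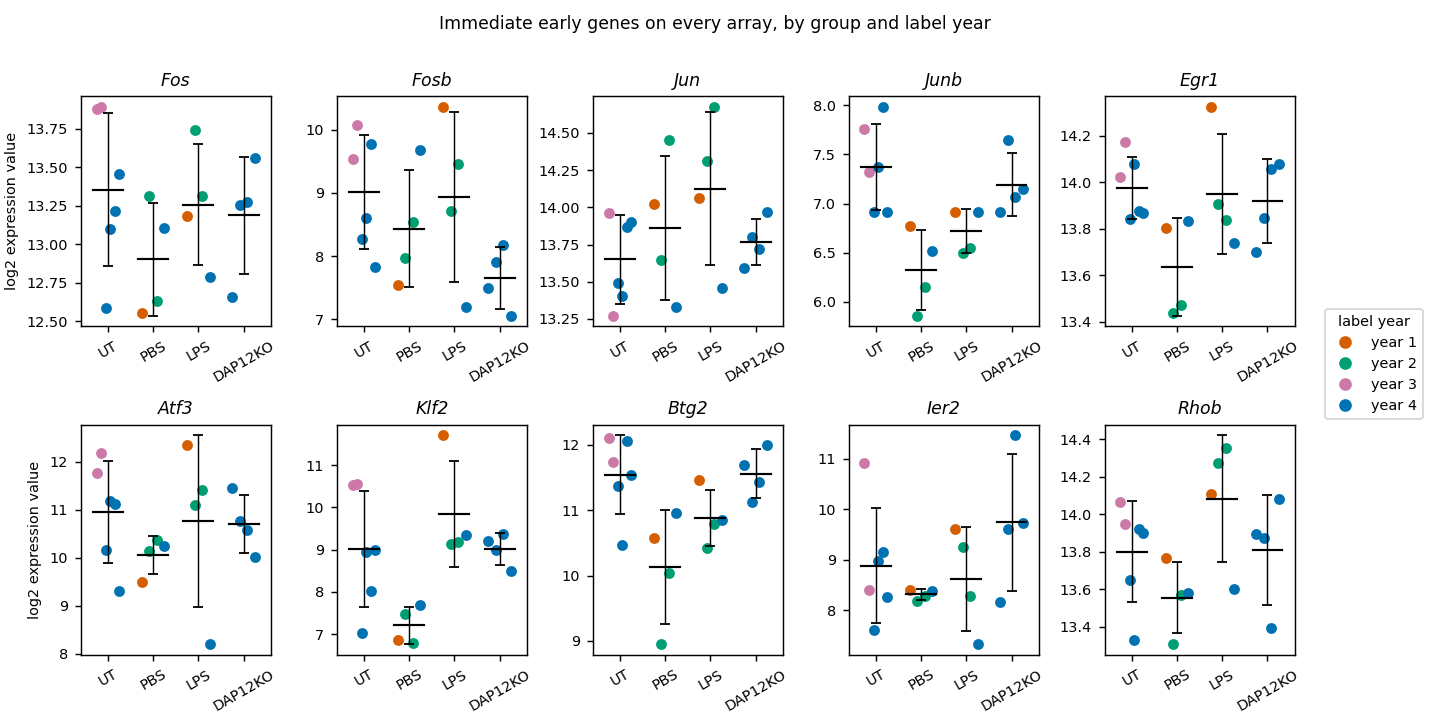
Each panel plots the log2 expression value of a gene (vertical axis, a separate scale per panel) on each of the 18 arrays, by group and coloured by label year; lines and bars are the group mean and SD. Klf2 is the panel in which all 4 LPS arrays (9.13 to 11.71) stand above all 4 PBS arrays (6.80 to 7.69), and the 2 UT arrays of year 3 are at the top of the UT group for Fos, Atf3, Klf2 and Rhob.

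The UT arrays of year 3 were higher than those of year 4 for most of the genes. Klf2, a zinc-finger factor of quiescent endothelium and lymphocytes that restrains myeloid activation, was at 10.54 on both UT arrays of year 3 and at 7.03, 8.03, 8.94 and 8.98 on those of year 4, a difference of 2.29. Fos was at 13.88 and 13.89 against 12.59 to 13.45, and Atf3 at 11.76 and 12.19 against 9.31 to 11.19. In Fos, Atf3, Klf2 and Rhob (4 of 10) both arrays of year 3 stood above all 4 of year 4, as did 13.2% of the 11630 genes tested. By difference of means 9 of 10 genes were higher in year 3, against 59% of all genes, Jun (-0.048) being the exception. The median of the 10 was 0.68, against 0.15 over all genes. These counts take the brighter probe set of a gene. The second Jun probe set was higher in year 3 by 0.32 (12.36 and 12.59 against 12.11 to 12.21), and the second Btg2 probe set by 0.73. For each of these, both arrays of year 3 stood above all 4 of year 4.

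The label year term of the fit over all 18 arrays asked whether the years differed, with the groups fitted, by more than the remaining spread. It tests all years jointly and not the UT difference alone. Of the 10 genes 0 passed (limma moderated F test, adjusted p under 0.05), and 2 had an unadjusted p under 0.05, Klf2 (adjusted p = 0.0919) and Jun (0.107), against 28.1% of all genes. Over all genes tested 10.9% (1270) had an adjusted p under 0.05. Fos (0.196) and Atf3 (0.186) came next. With single arrays left out, Klf2 passed without the PBS (adjusted p = 0.0127) or LPS array of year 1 (0.0465), Atf3 without the PBS array of year 4 (0.0259) and Jun without PBS replicate 1 of year 2 (0.0394). Over all genes 1571, 1734, 926 and 797 passed in these 4 fits.

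In LPS against PBS, the study's comparison for inflammation of the mother, all 10 genes had a higher fitted mean with LPS, and none passed the test. The fitted difference was above 0 in 10 of 10 genes, against 42.2% of all 11630, and its median was 0.44, against -0.12 over all genes. In the same comparison the microglia markers were higher by a mean of 0.55 and the neuron markers lower (-1.03). The part of this shift in the values of the 10 genes was not tested. With limma 0 of 10 genes had an adjusted p under 0.05, against 0.0946% of all genes (11 genes), and 3 had an unadjusted p under 0.05 (Klf2, Rhob and Egr1), against 12.4% of all genes. With array weights in limma 2 passed, Klf2 (adjusted p = 0.0100) and Rhob (0.0115), against 7.1% of all genes (826), and these weights were 0.272 for both arrays of year 1 and 0.679 for the LPS and the PBS array of year 4, against 1.45 to 2.43 for those of year 2.

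Klf2 differed most. It was at 11.71 on the LPS array of year 1, 9.13 and 9.17 on those of year 2 and 9.34 on that of year 4. On the PBS arrays of the same years it was at 6.86, then 7.46 and 6.80, then 7.69. The groups did not overlap, which held for 1 of the 10 genes and, with LPS above PBS, for 0.602% of all genes. The fitted difference was 2.63 ± 0.55 log2 (SE, n = 4 arrays per group, limma adjusted p = 0.0894). Within year 1, year 2 and year 4 it was 4.85, 2.02 and 1.65, and each of the 4 LPS arrays exceeded the mean of its year's PBS arrays. With the LPS or PBS array of year 4 left out it was 2.96 (adjusted p = 0.0442 and 0.0432), in fits in which 119 and 120 of all genes passed. Without either array of year 1 it was 1.90 (adjusted p = 0.110 and 0.107). Without the 2 PBS arrays of year 2, which carried the highest neuron markers, it was 3.25 ± 0.77 (adjusted p = 0.172), a value that rests on the single pairs of year 1 and year 4. The 6 UT arrays ran from 7.03 to 10.54. The LPS values of year 2 and year 4 lay within that range and that of year 1 (11.71) above it, and of the PBS values 7.46 and 7.69 lay within it and 6.80 and 6.86 below it. Klf2 is also an endothelial gene, and the mean of the 5 tested endothelial markers of 14 listed was 3.46 to 4.71 with LPS and 3.95 to 5.88 with PBS, and its part in the Klf2 values was not tested. On the 18 arrays Cdh5 was near the floor on 14, Cldn5, Tek and Esam on 15, Flt1 and Erg on 16 and Tie1, Ocln and Emcn on 17, while Egfl7 (5.41 to 8.92), Pecam1 (2.96 to 10.56) and Slco1c1 (3.01 to 9.87) were near it on 0 and Kdr on 1.

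Among the AP-1 subunits the differences were small or changed sign between years. Fos was at 13.18 (year 1), 13.74 and 13.31 (year 2) and 12.79 (year 4) with LPS, and at 12.56, 13.31 and 12.63, and 13.11 with PBS, a difference of 0.35 ± 0.24 (adjusted p = 0.576). Jun, the central AP-1 partner, was at 14.06, 14.31 and 14.67, and 13.46 with LPS, and at 14.02, 13.64 and 14.45, and 13.33 with PBS (0.26 ± 0.20, adjusted p = 0.610). Both sets overlap between the groups, and for Jun each of the 4 LPS arrays exceeded its year's PBS mean. Without PBS replicate 1 of year 2 the Jun difference was 0.067. Its second probe set gave 0.45 ± 0.19 (adjusted p = 0.357 over 22512 probe sets). Junb, a subunit that often restrains Jun, was at 6.91, 6.50 and 6.55, and 6.91 with LPS, and at 6.77, 5.86 and 6.15, and 6.52 with PBS (0.39 ± 0.44, adjusted p = 0.771). Fosb was at 10.37, 8.71 and 9.46, and 7.18 with LPS, and at 7.54, 7.97 and 8.54, and 9.68 with PBS. Its difference was 0.50 ± 0.67 (adjusted p = 0.828), with 2.83 in year 1, 0.83 in year 2 and -2.50 in year 4, and -0.28 without either array of year 1.

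Atf3 and Egr1 were higher with LPS within year 1 and year 2 and lower within year 4. Atf3, which limits inflammatory transcription and is induced by stress kinases, was at 12.35, 11.10 and 11.42, and 8.20 with LPS, and at 9.49, 10.14 and 10.37, and 10.26 with PBS. The LPS array of year 4 was the lowest of all 18 for Atf3 and that of year 1 the highest. The difference was 0.70 ± 0.60 (adjusted p = 0.673), with 2.86, 1.00 and -2.05 within the years, and -0.017 without either array of year 1. Egr1 was at 14.32, 13.90 and 13.84, and 13.74 with LPS, and at 13.80, 13.44 and 13.47, and 13.83 with PBS (0.31 ± 0.13, adjusted p = 0.334, -0.10 within year 4). The lowest Egr1 values were those of the 2 PBS arrays of year 2.

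Rhob, like Klf2, exceeded its year's PBS mean on all 4 LPS arrays and had an unadjusted p under 0.05. It was at 14.11, 14.27 and 14.35, and 13.60 with LPS, and at 13.77, 13.31 and 13.57, and 13.58 with PBS, 0.53 ± 0.18 (adjusted p = 0.262). Within year 1, year 2 and year 4 the difference was 0.34, 0.87 and 0.02, and without the 2 PBS arrays of year 2 it was 0.18 ± 0.23 (adjusted p = 0.839). Btg2 was at 11.46, 10.42 and 10.79, and 10.84 with LPS, and at 10.57, 8.95 and 10.03, and 10.96 with PBS (0.75 ± 0.36, adjusted p = 0.416). Its second probe set gave 0.94 ± 0.47 (adjusted p = 0.433), with 2.15 in year 2 and -1.65 in year 4, where the brighter probe set gave -0.12. Ier2, a nuclear regulator of migration, was at 9.61, 9.25 and 8.28, and 7.33 with LPS, and at 8.41, 8.19 and 8.28, and 8.39 with PBS (0.30 ± 0.69, adjusted p = 0.920). The 4 PBS arrays lay within 8.19 to 8.41 for Ier2, inside the range of the LPS arrays. The difference was 0.0048 without either array of year 1, 0.76 without either of year 4, and -1.05 in a fit that also held each array's mean of the neuron markers.

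The direction of LPS minus PBS was the same in year 1 and year 2 and not in year 4. Within year 1 and within year 2 all 10 genes were higher with LPS, with medians of 0.76 and 0.69 (43.9% and 42.1% of all genes were above 0, with medians of 0 and -0.11). Within year 4, with a single array per group, 4 of 10 were higher, Jun, Junb, Klf2 and Rhob, and the median was -0.11 (39.9% and -0.06 over all genes). In these shares a difference of exactly 0 does not count as above 0, and none of the 10 genes had such a difference. Both year 1 and year 4 have 1 array per group and give no test of their own. At the level of probe sets 0 of 12 passed, against 0.0267% of 22512, with Klf2, Rhob, Egr1 and the second Jun probe set at an unadjusted p under 0.05.

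**Figure D2:**
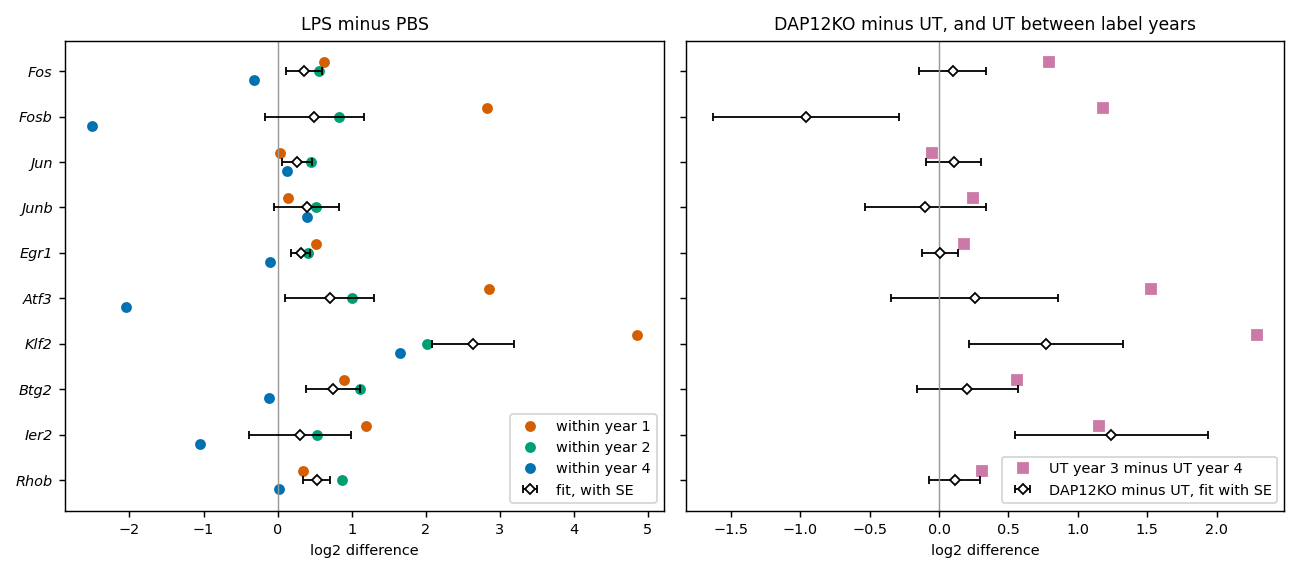
The horizontal axis is a log2 difference and each line a gene. The left panel gives LPS minus PBS within each label year (dots) and from the fit over all arrays with its SE (diamonds), and the right panel gives DAP12KO minus UT from the fit with its SE and the difference of UT means between year 3 and year 4 (squares). Klf2 is right of 0 in every year (4.85, 2.02 and 1.65), while Fosb (2.83, 0.83 and -2.50) and Atf3 (2.86, 1.00 and -2.05) lie on both sides.

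DAP12KO against UT asked what the loss of the adaptor does to resting embryonic microglia, and none of the 10 genes passed here either. All DAP12KO arrays are of year 4, so that the UT arrays of that year set the difference. With limma 0 of 10 genes and 0 of 11630 passed (0%), the counts at an unadjusted p under 0.05 being 0 of 10 and 637 of 11630, and with array weights also 0 of 10. The difference was above 0 in 8 of 10, against 51.8% of all genes, with a median of 0.11 against 0.02. In all 10 genes the DAP12KO arrays overlapped the UT arrays of year 4, whereas 2.37% of all genes did not overlap in one direction or the other.

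The largest differences in either direction belonged to Ier2 and Fosb. Ier2 was at 8.16, 9.61, 11.46 and 9.73 on the DAP12KO arrays and at 7.61, 8.97, 9.15 and 8.27 on the UT arrays of year 4, a difference of 1.24 ± 0.69 (n = 4 arrays per group in year 4, adjusted p = 0.908), and of 0.67 without DAP12KO replicate 4 (11.46). Fosb was at 7.49, 7.91, 8.18 and 7.05 against 8.27, 8.61, 9.77 and 7.82, a difference of -0.96 ± 0.67 (adjusted p = 0.912), and of -0.57 without UT replicate 3. All 4 DAP12KO arrays were below the UT mean for Fosb, 3 of 4 were above it for Ier2, and both sets overlap. Klf2 was at 9.21, 9.0, 9.36 and 8.49 against 7.03, 8.94, 8.03 and 8.98, above the UT mean in 4 of 4 (0.77 ± 0.55, adjusted p = 0.917). It was 0.37 without UT replicate 1 of year 4 and 0.0059 without the label year term. The SD of Klf2 was 0.38 over the DAP12KO arrays, against 0.92 for the UT arrays of year 4. The other 7 genes differed by -0.10 (Junb) to 0.26 (Atf3), with Fos at 0.10 ± 0.24, Jun at 0.10 ± 0.20, Egr1 at 0.0053 ± 0.13, Btg2 at 0.20 ± 0.36 and Rhob at 0.11 ± 0.18. The second Btg2 probe set was at 11.40 to 11.59 on the DAP12KO arrays, just above the UT arrays of year 4 (10.54 to 11.38), by 0.42 ± 0.47 (adjusted p = 0.957 over 22512 probe sets). The second Jun probe set gave -0.06 ± 0.19, opposite in sign to the brighter one, with 2 of 4 DAP12KO arrays above the UT mean.

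The difference between the responses, LPS minus PBS less DAP12KO minus UT, was positive for 9 of 10 genes and passed for 0 of 10, as for 0 of all 11630 genes (0%; 943 at an unadjusted p under 0.05). Klf2 had an unadjusted p under 0.05, with 1.86 ± 0.78 (limma adjusted p = 0.592). Ier2 was the gene with a negative value, -0.94 ± 0.98 (adjusted p = 0.802).

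By group mean over all years PBS was the lowest of the 4 groups for 8 of 10 genes, against 27.7% of all genes, the exceptions being Fosb (lowest in DAP12KO) and Jun (lowest in UT), and UT was the highest for 5. For Klf2 the order was LPS (9.84 ± 1.25, SD, n = 4), DAP12KO (9.02 ± 0.38, n = 4), UT (9.01 ± 1.38, n = 6) and PBS (7.20 ± 0.44, n = 4), in which the first 3 lie within their spread of each other. For Btg2 it was DAP12KO (11.56 ± 0.37), UT (11.55 ± 0.60), LPS (10.88 ± 0.43) and PBS (10.13 ± 0.87). For Junb it was UT (7.38 ± 0.44), DAP12KO (7.19 ± 0.32), LPS (6.72 ± 0.22) and PBS (6.33 ± 0.40), so that both treated groups were below both untreated groups by their means. These orders mix years, and PBS and UT share only year 4. They include the 2 PBS arrays of year 2 with the lowest microglia (11.9 and 12.1) and highest neuron markers (10.5 and 10.6), whose part in them was not tested. Within year 4 the single PBS array lay below the UT mean for 8 of 10 genes, with a median of -0.16 (0.04 over all genes, of which 53.5% were above 0). For Fosb (by 1.07) and slightly for Fos (by 0.02) it lay above that mean.

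The arrays moved on these genes together to a varying degree. For each gene the deviation from its mean of 18 arrays was taken and averaged over the 10 genes. This mean deviation was highest on the UT arrays of year 3 (0.89 and 0.59) and the LPS array of year 1 (0.84), and lowest on PBS replicate 1 of year 2 (-0.74), the LPS array of year 4 (-0.63) and the PBS array of year 1 (-0.59). The LPS array of year 1 was the highest of all 18 for 4 of the 10 genes, and PBS replicate 1 of year 2 the lowest for 4. Each of the 4 PBS arrays was above the mean for 1 of 10 genes, as were the LPS array and UT replicate 1 of year 4. The 4 DAP12KO arrays lay between -0.09 and 0.29 and the UT arrays of year 4 between -0.48 and 0.33. The Gapdh 3′ minus 5′ difference was 1.31 and 2.77 on the UT arrays of year 3, 2.73 on the LPS array of year 1, 2.46 on PBS replicate 1 of year 2 and 0.96 on the LPS array of year 4, and its part in these deviations was not tested.

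**Figure D3:**
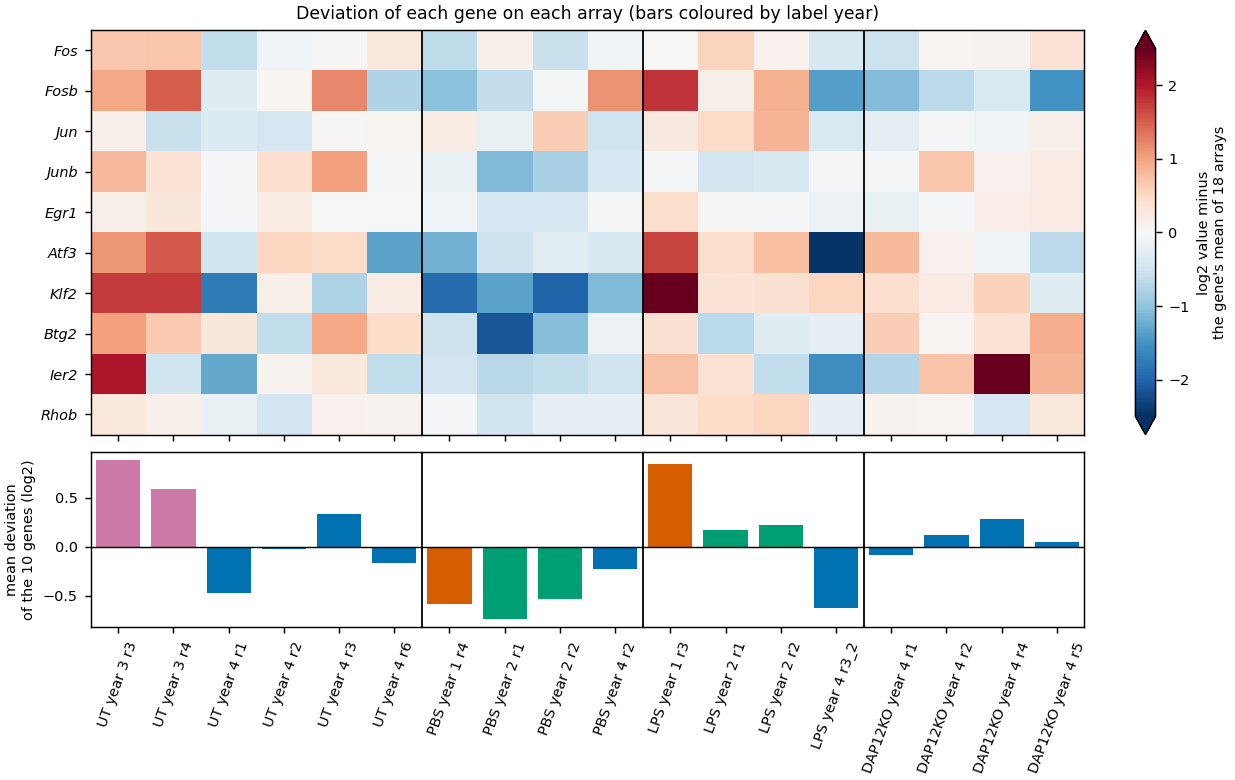
The upper panel colours the log2 value of each gene on each array minus that gene's mean over the 18 arrays (values beyond 2.5 in either direction share the end colour), and the lower panel gives the mean over the 10 genes as bars from 0, coloured by label year. The 4 PBS bars are all below 0, the bars of the UT arrays of year 3 (0.89 and 0.59) and of the LPS array of year 1 (0.84) are the highest, and the LPS array of year 4 (-0.63) falls among the PBS bars.

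Once group and year were fitted, the genes differed in how much they still varied and in how alike they did so. The residual SD was largest for Ier2 (1.04), Fosb (0.99), Atf3 (0.95) and Klf2 (0.77), and smallest for Egr1 (0.15), Rhob (0.27) and Jun (0.30). As a description over 18 arrays with 11 residual degrees of freedom, the residuals of Fosb followed the mean of the other 9 most closely (Pearson r = 0.79), then Egr1 (0.60) and Atf3 (0.58), and those of Rhob (0.18) and Jun (0.22) least. The genes outside the list with the most similar residuals to the mean of the 10 were Cybrd1, Ccnq, Ino80e, Pyroxd2, Map3k11, Tpm2, Zbtb7b, Snx32, Zbtb45 and Csf3r (r = 0.89 down to 0.79, chosen for these values). That mean was not scaled, so genes with a large residual SD weigh more in it. Cybrd1 had a low mean log2 value (3.58). It and Zbtb45 were lower with LPS (-3.72 ± 1.15 and -0.39 ± 0.71), and the rest were higher. Map3k11 encodes a kinase upstream of JNK, and Csf3r, which encodes the G-CSF receptor, was 2.25 ± 0.39 higher with LPS (limma adjusted p = 0.0444). In LPS minus PBS 0 of all genes passed without the label year term, with the neuron covariate, with the replicate number as a block or without any single array of year 2, so that this call was lost there. The points of these correlations are the same arrays, amplified and sorted alike.

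Other genes of the response were read from lists. Of 21 tested transcription factors of the same class, among them Jund, Egr2, Egr3, Nr4a1, Klf4, Klf6 and Myc, 14 were higher with LPS and 0 passed in either direction (median 0.37, against -0.12 over all genes). The lowest p values belonged to the nuclear receptors Nr4a3 (-1.16 ± 0.52, adjusted p = 0.376) and Nr4a2 (-1.48 ± 0.76) and to Egr3 (1.72 ± 0.95), so that the 2 nuclear receptors were lower. Of 23 other effectors, such as the RNA-decay factor Zfp36 and the kinase Plk2, 18 were higher and 0 passed (median 0.37), led by Rgs2, a brake on G protein signalling (0.62 ± 0.17, adjusted p = 0.169), Zfp36l1 (0.51 ± 0.20) and Cd83 (0.96 ± 0.42). Of the 44 genes of both lists 26 and 34 were above 0 within year 1 and year 2 and 16 within year 4, with medians of 0.33, 0.54 and -0.069, beside 43.9%, 42.1% and 39.9% of all genes above 0. In UT, 33 of the 44 were higher in year 3 than in year 4 (median 0.56), beside 59% of all genes.

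The phosphatases and inhibitors that shut the MAP kinase signal off, and the kinases that start it, did not share one direction. Of 14 feedback genes 8 were higher with LPS (median 0.07), with Spry2 (-1.98 ± 0.61, adjusted p = 0.216), Dusp4 (-2.31 ± 0.82) and Dusp8 (-1.37 ± 0.56) lowest in p, and 0 passed. Of 22 upstream kinases and factors 14 were higher (median 0.14), with Elk1 (-1.09 ± 0.40, adjusted p = 0.282), Mapk7 (-1.41 ± 0.63) and Map2k1 (0.73 ± 0.35) first, and 0 passed. Mapk7, which encodes ERK5, acts through MEF2 on Klf2 in endothelium, and in the list of 10 tested genes linked to Klf2, 7 were higher and 0 passed (median 0.32), with Txnip at 0.72 ± 0.35 (adjusted p = 0.416) and Klf4 at -1.41 ± 0.79.

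Heat shock and rapid inflammatory genes were read next. Of 16 heat shock and unfolded protein genes 8 were higher and 0 passed (median -0.03), with Dnajb4 at -1.86 ± 0.74 (adjusted p = 0.320), Hspa8 at -0.15 ± 0.08 and Dnaja1 at -0.36 ± 0.22. Of 20 rapid inflammatory genes 19 were higher, against 42.2% of all genes, and 0 passed (median 0.77). The lowest p values belonged to the NF-κB regulator Nfkbid at 2.04 ± 0.54 (adjusted p = 0.169), the chemokine Ccl4 at 1.51 ± 0.52 and the cytokine Il1a at 1.18 ± 0.46. Within year 4, with a single array per group, Ccl2, Ccl7, Cxcl2, Cxcl10, Nfkbia, Socs3, Ier3 and Relb were lower with LPS. There Cxcl1 did not differ and the rest of the list were higher. Beside these lists, microglia markers were higher with LPS by a mean of 0.55 and neuron markers lower by a mean difference of -1.03, and their part in the list values was not tested.

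In DAP12KO against UT 0 members of any of these 7 lists passed. The median was 0.06 for the other transcription factors (12 of 21 higher; Klf10 0.78 ± 0.48, adjusted p = 0.908, Nr4a2 -1.21 ± 0.76 and Fosl2 1.62 ± 1.12), and 0.09 for the effectors (14 of 23; Btg1 -0.45 ± 0.25, Zfp36l2 0.50 ± 0.28 and Ier3 0.71 ± 0.43). It was -0.04 for the feedback genes (5 of 14; Spred2 -1.91 ± 0.77, Dusp6 0.42 ± 0.29 and Spred1 0.64 ± 0.50) and 0.05 for the upstream genes (13 of 22; Map2k1 0.79 ± 0.35, Map2k3 -2.34 ± 1.08 and Map2k4 1.96 ± 0.93). The rapid inflammatory genes had the largest median, 0.58. Of these 20, Ccl7, Tnfaip3 and Socs3 were lower, Cxcl1 and Cxcl2 did not differ, and the rest were higher. Among the higher ones were Tnf (2.69 ± 0.89, adjusted p = 0.788), Cxcl10 (3.24 ± 1.19) and Ccl2 (1.45 ± 0.62). Heat shock genes had 9 of 16 higher (median 0.08; Hspd1 0.58 ± 0.23, Atf4 -0.75 ± 0.35 and Hspe1 0.31 ± 0.16) and the Klf2-linked genes 6 of 10 (0.03; Cdkn1a -1.42 ± 0.81, Klf4 1.08 ± 0.79 and S1pr1 -0.42 ± 0.51). Over all genes the median was 0.02.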

How the data were processed

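RNA was measured on Affymetrix Mouse430_2 arrays after miRNeasy extraction and Ovation Pico WTA v2 amplification, per the labels' protocols. The values the authors deposited are log2 expression values of 45101 probe sets on 18 arrays; RMA is named in the submitters' processing notes, without a version or the sets of arrays it was run on. The number of arrays limits the precision.

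Groups and label years came from the titles. The 34958 probe sets with 1 gene symbol (932 had several, 9211 none) were used. Of several probe sets of a gene the brightest on average stood for it, and a minimum mean at percentile 40 of the whole table (log2 2.49; values under it are called near the floor) kept 11630 genes. All genes were fitted with limma 3.58.1 in R 4.3.3 with the 4 groups, an additive label year and a variance prior that follows intensity (11 residual degrees of freedom); p-values are two-sided with Benjamini-Hochberg adjustment over all genes and a threshold of 0.05. Every probe set was also fitted on its own. Errors are SE for differences and SD for means. Hippocampi were pooled per dam, but no label ties an array to a dam, so p-values measure the spread between these arrays. The fit was tested on simulated data. Figures used matplotlib 3.10.9.

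The members, lists and tests were chosen with earlier results of these data known. One pathway list is not reported here. Named were all members, of each other pathway list the genes past the threshold or else the 3 with the lowest p in a comparison, and the 10 genes with the most similar residuals; other genes are mentioned as examples without values.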

Additional observations from a re-analysis of the deposited data

Results flagged for a closer look

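Klf2 on the LPS array of year 1, at 11.71, stood apart from the other 3 LPS arrays (9.34 at most, 9.13 at least). The gap was 0.92 of the group's range, above the critical value of Dixon's test for 4 values. This was the 1 such gap among 48 sets of values looked at (12 probe sets in 4 groups), and chance gives about 1 in 20.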

How the results depend on the processing

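Across 29 alternatives per comparison (no label year term, the compared groups alone, other filters, probe set rules and variance priors, array weights, a neuron marker covariate, year 2 left out in part or whole, each array left out), the differences LPS minus PBS of Fos, Jun, Junb, Egr1, Klf2, Btg2 and Rhob stayed above 0, and so did Klf2 (lowest 0.0059, without the label year term), Jun (0.017) and Ier2 (0.67) in DAP12KO minus UT, where Fosb stayed below 0 (highest -0.57). Many of these 29 could not move a difference. LPS minus PBS is the same without the label year term and without any UT or DAP12KO array. DAP12KO minus UT is the same without any LPS or PBS array or UT array of year 3. Filters, variance priors, blocks and the compared groups alone move neither, and averaging probe sets can move only Jun and Btg2. The fit of each probe set on its own is not among these 29, and there the second Jun probe set was below 0 in DAP12KO minus UT (-0.06 ± 0.19). The members called with LPS numbered 2 with array weights and 0 to 1 with each array left out, and by label year 1 with array weights and 0 to 1 with each array left out. All genes called numbered, for LPS minus PBS, 0 without the label year term, with the compared groups alone, at the 60th percentile and with the neuron covariate, 1 without a filter and with the robust prior, 6 with probe sets averaged or each on its own, 826 with array weights, 5 without year 2 and 0 to 120 with each array left out (77 to 120 without an LPS or PBS array of year 1 or year 4, 0 without any of year 2). For DAP12KO minus UT they numbered 0 to 6, and for the difference of the responses 1 without a filter, with probe sets averaged and each on its own, 11 with array weights and 0 to 18 with each array left out. By label year they numbered 1270, with 2034 for each probe set on its own, 528 with array weights, 197 with the neuron covariate, 473 without the 2 PBS arrays of year 2, 159 without year 2 and 797 to 1734 with each array left out. Signs turned for Ier2 with LPS under the neuron covariate (-1.05), in DAP12KO minus UT without the label year term for Atf3 (-0.25), Egr1 (-0.055) and Fos (-0.17), for Egr1 under the neuron covariate (-0.073) and for Junb with array weights (0.049). With each array left out the ranges were -0.017 to 1.62 (Atf3) and -0.28 to 1.50 (Fosb) with LPS, and in DAP12KO minus UT -0.12 to 0.50 (Atf3), -0.10 to 0.43 (Btg2), -0.0475 to 0.0787 (Egr1), -0.07 to 0.27 (Fos), -0.25 to 0.13 (Junb) and -0.012 to 0.25 (Rhob). The causes were not tested. With the replicate number as a block 0 genes passed for LPS minus PBS and Klf2 stood at 2.63 ± 0.59 (adjusted p = 0.213). Same-numbered LPS and PBS arrays of year 2 deviated alike (r = 0.53 over genes). Same-numbered DAP12KO and UT arrays of year 4 did not (-0.0105 and 0.0084), which does not bear on LPS and PBS. The main fit did not take the numbers as pairs.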

Other observations

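Junb held the same value, 6.91, on 5 arrays of 3 groups (UT replicates 1 and 6 of year 4, the LPS arrays of year 1 and year 4 and DAP12KO replicate 1), and 21.8% of the 11630 genes tested had 4 or more arrays at a single value. That share does not set apart ties at the lowest value of the table (2.19), and the Junb value is far above it. Differences of Junb between those arrays are therefore 0 in the deposited table.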
